A study of Mus musculus with 4 samples.

Results

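Neurog3, Neurod1, Insm1, Sox4, Fev, Nkx2-2 and Rfx6 are 7 transcription factor genes known to act as epithelial cells commit to an endocrine fate. They were chosen by name for that role and are 7 of the 32288 features counted. Their transcripts were followed across the cell types and subtypes that the authors deposited for pancreas cells of 4 injured mice. The mice had the genotype Ptf1aCre-ERTM;ROSAYFP/+, were backcrossed into CD-1, and were 10 weeks old when the injury began. In such mice tamoxifen marks acinar cells, the enzyme-secreting cells in which Ptf1a drives the inducible Cre, with the fluorescent protein EYFP. Caerulein, a peptide that overstimulates acinar cells, was given for 2 weeks in 2 mice and for 4 weeks in 2 mice, and EYFP+ cells were sorted for single-cell RNA sequencing. All 4 mice carried both alleles and received tamoxifen and caerulein, so no uninjured pancreas enters the comparisons.

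Neurog3 encodes a basic helix-loop-helix factor that starts endocrine differentiation in the embryonic pancreas and in the gut epithelium. It is made for a short time, and Notch signalling holds it down in neighbouring cells. Neurod1 is a related helix-loop-helix factor and a known target of Neurog3. Insm1 is a zinc finger repressor, Nkx2-2 a homeodomain factor and Rfx6 a winged-helix factor, all needed for endocrine cells to form normally. Fev is an ETS factor known from serotonergic neurons and endocrine precursors, and Sox4 is an HMG-box factor of many progenitor cells.

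The deposited tables held 21140 cells, of which 13362 had 1 of 8 type labels and 2586 also had 1 of 9 subtype labels. The subtypes are MucinDuctalProgenitor, EEC-Progenitor (Neurog3+), Epsilon (Ghrl+), Delta (Sst+), Ppy+, ECL (Tac1+) and Tuft-1 to Tuft-3. EEC is read here as enteroendocrine cell, tuft cells are chemosensory epithelial cells, and Ghrl, Sst, Ppy and Tac1 encode peptide hormones or neuropeptides. The 4 libraries held 72459531 to 103610807 UMIs (unique molecular identifiers, each standing for 1 captured transcript). Cells with a subtype had a median of 12527.5 to 17922.5 UMIs by mouse. The mice contributed unequally: 2-week mouse 2 gave 118 of 156 MucinDuctalProgenitor cells and 166 of 210 Tuft-1 cells, and 2-week mouse 1 gave 5 and 6. Means were taken over mice with at least 10 cells of a subtype, which left 3 mice for these 2 subtypes and 4 mice for the other 7. Of the typed cells, 47 had a barcode that also occurred in another library.

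Levels are given in CPM, the usual count scaled to library size, here to the UMIs of all cells of that subtype in a mouse, as mean ± SD over mice. Values by mouse always follow the order 2-week mouse 1, 2-week mouse 2, 4-week mouse 1, 4-week mouse 2. The labels were made from the same counts, and EEC-Progenitor cells are named for Neurog3 itself, so differences between subtypes are described and carry no test. As a background, 1752 immune cells without a type label (median 4103.5 to 5915.5 UMIs by mouse) held 6 of the factors at 0 to 1.78 CPM. They were chosen for a UMI of the immune gene Ptprc and at least 2 markers of the same immune class. Cells with a UMI of the granule genes Chga or Chgb or of the epithelial gene Epcam were left out. That choice removes cells with stray endocrine or epithelial RNA, so these levels do not measure how much of it occurs. Sox4 was at 22.6 to 62.6 CPM in those immune cells.

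The promoters are shown because Neurog3 and Neurod1 bind E-boxes, the motif CANNTG, and the 6 genes with a promoter entry differ in how many E-boxes lie before their starts. RefSeq promoter sequence (build GRCm38.p6) was matched for 6 of the 7 genes, all but Insm1. The 250 bases before the start are printed 5′ to 3′ for Neurog3 (chr10:62132840-62133089, plus strand) and Rfx6 (chr10:51685268-51685517, plus strand), the pair whose windows overlap no annotated exon. Capitals mark CANNTG, which reads the same way on both strands.
Neurog3: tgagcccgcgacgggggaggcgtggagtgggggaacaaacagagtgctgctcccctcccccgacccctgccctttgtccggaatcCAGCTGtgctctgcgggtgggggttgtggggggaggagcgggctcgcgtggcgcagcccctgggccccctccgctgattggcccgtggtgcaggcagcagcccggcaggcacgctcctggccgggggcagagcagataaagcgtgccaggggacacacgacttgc
Rfx6: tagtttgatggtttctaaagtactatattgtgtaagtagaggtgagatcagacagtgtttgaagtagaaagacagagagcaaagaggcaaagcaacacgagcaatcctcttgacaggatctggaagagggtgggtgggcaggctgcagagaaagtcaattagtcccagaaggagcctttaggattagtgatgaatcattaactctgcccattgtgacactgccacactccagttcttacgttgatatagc
The Neurog3 window held 1 CANNTG, starting 165 bases before the start, and the Rfx6 window held 0. Neurod1 and Sox4 had 1 each, Fev had 0, and Nkx2-2 had 3, of which 1 was CATCTG, the reverse complement of CAGATG. Of 27025 promoters of this length, 66.0% held CANNTG and 14.5% held CAGATG or CATCTG, so a match is common. The table's starts for Rfx6 and Nkx2-2 lie inside the annotated spans of these genes rather than at their ends, so other starts of both genes were not searched.

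In the annotation of that build, Neurog3 lies on chromosome 10 from 62133090 to 62134763 and Neurod1 on chromosome 2 from 79452521 to 79456751. Neurog3 overlaps Fam241b on the other strand, Neurod1 overlaps Cerkl on its own strand, and Neurod1, Sox4 and Nkx2-2 overlap noncoding genes on the other strand. Insm1, Fev and Rfx6 overlap no annotated gene. How the counting treated strand and overlaps is not given in the sources used here, so reads of the 4 overlapping genes may not be fully separable from those of their partners.

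Neurog3, the factor that opens the program, was concentrated in EEC-Progenitor cells. It stood there at 2630, 2322, 2406 and 2287 CPM (2411 ± 154, n = 4), and 84.4%, 89.8%, 77.6% and 84.2% of the cells had a UMI. MucinDuctalProgenitor cells held 28.1, 10.5 and 43.1 CPM in the 3 mice with enough cells, and 20 of all 156 such cells had a UMI. No mouse of another subtype came near the EEC-Progenitor range, and the within-mouse log2 ratio of EEC-Progenitor over MucinDuctalProgenitor cells was 6.57 ± 1.03 (n = 3, 1 CPM added to each level). Epsilon cells held 84.8, 157, 90.2 and 164 CPM, from a UMI in 28.2%, 30.2%, 23.5% and 27.9% of cells.

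In Delta and Ppy+ cells Neurog3 rested on 1 to 3 cells per mouse, and in ECL cells on 2 or 3 except in 2-week mouse 2. Delta cells held 352, 97.9, 6.34 and 5.75 CPM from 2, 2, 1 and 1 cells, and a single cell carried 98.2% of the Neurog3 UMIs in 2-week mouse 2. Ppy+ cells held 3.38, 140.3, 4.79 and 39.2 CPM from 1, 2, 3 and 3 cells. ECL cells held 27.1, 203, 13.4 and 12.4 CPM from 2, 15, 3 and 3 cells, the 15 being of 71 ECL cells in 2-week mouse 2. The ranges of these 3 subtypes overlapped each other and those of Epsilon and MucinDuctalProgenitor cells, so Neurog3 gives them no order.

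Neurod1 stayed high beyond the EEC-Progenitor label. It was 2.81, 0 and 0 CPM in MucinDuctalProgenitor cells and 601, 702, 668 and 701 CPM in EEC-Progenitor cells (668 ± 47.6, n = 4). The mice at 4 weeks gave 13 and 20 MucinDuctalProgenitor cells. A level of 0 in them, taken as 3 counts, allows up to 15.8 and 9.95 CPM for any factor. ECL cells held 698, 860.1, 506 and 607 CPM, and Epsilon cells held 527, 762, 488 and 562 CPM. These 3 subtypes overlapped, and all lay above Ppy+ cells (327 ± 72.4 CPM) and Delta cells (248 ± 52.4 CPM), which overlapped each other. Relative to EEC-Progenitor cells of the same mouse, the log2 ratio was -0.02 ± 0.33 in ECL, -0.21 ± 0.24 in Epsilon, -1.05 ± 0.30 in Ppy+ and -1.45 ± 0.27 in Delta cells.

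Insm1 was highest in EEC-Progenitor cells, at 837, 1001, 788 and 945 CPM (893 ± 97.7, n = 4). MucinDuctalProgenitor cells held 6.57, 0 and 3.32 CPM. ECL cells, at 707 ± 129 CPM, overlapped the EEC-Progenitor range but were lower in each of the 4 mice, with a log2 ratio of -0.35 ± 0.16. Delta cells (400.4 ± 49.3 CPM) and Epsilon cells (351 ± 115 CPM) overlapped, and Ppy+ cells had 215 ± 32.2 CPM, a log2 ratio of -2.05 ± 0.23 to EEC-Progenitor cells.

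Nkx2-2 was shared by EEC-Progenitor and Epsilon cells. EEC-Progenitor cells held 257, 429, 227 and 320.5 CPM, and Epsilon cells of the same mice held 248, 413, 219.6 and 266 CPM, a log2 ratio of -0.11 ± 0.11. ECL cells came next at 158 ± 18.4 CPM, apart from both, followed by Delta cells at 59.5 ± 24.7 CPM and Ppy+ cells at 45.2 ± 14.9 CPM, which overlapped each other. MucinDuctalProgenitor cells held 8.76, 0 and 0 CPM, with all 28 UMIs in 2-week mouse 2. The limits of the 2 zeros, 15.8 and 9.95 CPM, lie above 8.76 CPM, so they show no difference between mice.

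Sox4 departed from this pattern, because it was already high in MucinDuctalProgenitor cells. Its level there was 2969, 4669 and 4397 CPM, against 3732, 3866, 3360 and 3459 CPM in EEC-Progenitor cells, and the ranges overlapped (log2 ratio -0.15 ± 0.46, n = 3). Tuft-1 cells followed at 1434 ± 477 CPM, apart from both progenitor subtypes and from the rest. Epsilon (640 ± 236 CPM), ECL (583 ± 80.3 CPM) and Delta cells (534 ± 102 CPM) overlapped, and Tuft-2 (382 ± 60.8 CPM), Tuft-3 (258 ± 65.0 CPM) and Ppy+ cells (198 ± 95.4 CPM) came last, with neighbours in this order overlapping. In each of the 4 mice Sox4 was lower in every hormone-named subtype than in EEC-Progenitor cells, by a log2 ratio from -2.55 ± 0.40 in Epsilon to -4.29 ± 0.53 in Ppy+ cells.

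Fev and Rfx6 had their highest levels in ECL cells. Fev was 335, 367, 359 and 307 CPM in ECL cells against 66.1, 57.8, 118 and 74.2 CPM in EEC-Progenitor cells, a log2 ratio of 2.15 ± 0.45. Rfx6 was 285, 289.8, 335 and 259 CPM in ECL cells against 120.4, 120.2, 134 and 117 CPM in EEC-Progenitor cells, a log2 ratio of 1.24 ± 0.07. For both genes all 4 mice of ECL cells lay above every mouse of the other subtypes. Fev in Epsilon (98.3 ± 21.3 CPM), Delta (94.7 ± 3.08 CPM), EEC-Progenitor (79.0 ± 26.9 CPM) and Ppy+ cells (58.4 ± 9.66 CPM) formed a chain of overlapping neighbours, as did Rfx6 in Epsilon (159 ± 61.8 CPM), EEC-Progenitor (123 ± 7.60 CPM), Ppy+ (119 ± 2.08 CPM) and Delta cells (111 ± 57.5 CPM). In MucinDuctalProgenitor cells both were at 0 in the 2 mice at 4 weeks, and at 1.88 (Fev) and 3.13 CPM (Rfx6) in 2-week mouse 2. The zeros allow up to 15.8 and 9.95 CPM, so they show no difference between mice.

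**Figure D1:**
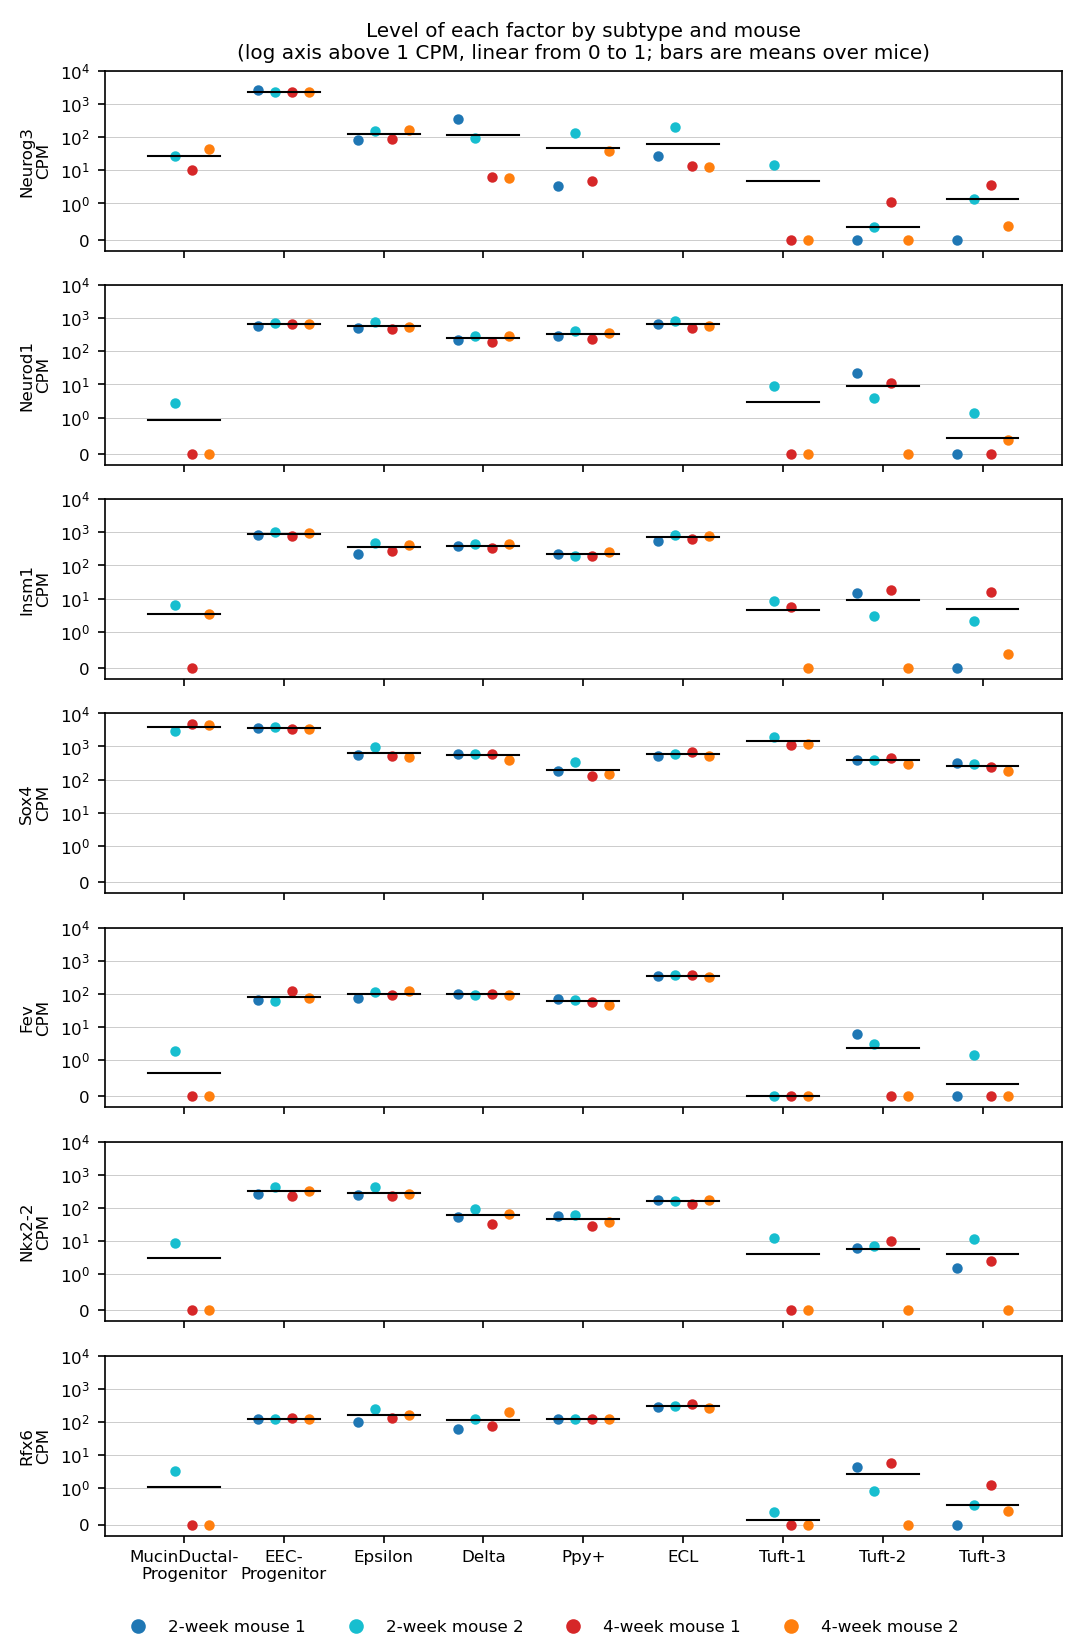
Level of each factor in CPM (y axis, logarithmic above 1 CPM and linear from 0 to 1) in the 9 subtypes (x axis); points are mice with at least 10 cells and black bars are means over mice. Neurog3 stands at 2287 to 2630 CPM in EEC-Progenitor cells, Sox4 is high in both progenitor subtypes, and Fev and Rfx6 are highest in ECL cells.

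Counts of factors whose mice did not overlap between 2 subtypes restate the levels above and add no separate support. From MucinDuctalProgenitor to EEC-Progenitor cells, 6 of the 7 factors were higher and 0 lower, while 30.5% of 6468 genes with a mean of at least 20 CPM were higher and 12% lower. From EEC-Progenitor to Epsilon cells, 0 factors were higher and 3 lower, against 11.3% and 17.4% of those genes. To Delta cells 0 were higher and 5 lower (16.9% and 18.9% of genes), to Ppy+ cells 0 and 5 (9.91% and 34.6%), and to ECL cells 2 and 3 (21.3% and 16.8%). In Ppy+ cells a lower level than in EEC-Progenitor cells was thus common among all genes. The EEC-Progenitor subtype is named for Neurog3, which favours a difference of that factor in each contrast. The limit of 20 CPM applies to the mean over all subtypes. A high EEC-Progenitor level, as for Neurog3, helps a gene pass it.

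Because cells differ in depth, each was also thinned to 5000 UMIs, which left out 13 of 391 EEC-Progenitor cells. In thinned EEC-Progenitor cells a UMI was found for Sox4 in 100% of cells, for Insm1 in 90.3% ± 4.5, for Neurog3 in 80.7% ± 3.7, for Neurod1 in 67.6% ± 5.3, for Nkx2-2 in 66.2% ± 7.5, for Rfx6 in 38.6% ± 1.7 and for Fev in 13.5% ± 2.2 (SD, n = 4). Without thinning the shares of Neurog3, Rfx6 and Fev were 84.0% ± 4.96, 64.9% ± 2.83 and 16.9% ± 2.48. In thinned ECL cells Rfx6 was found in 70.4% ± 3.1 and Fev in 70.3% ± 5.2 of cells, while Neurog3 was found in 5.7% ± 8.4. Thinned immune cells without a type had each of the 6 factors other than Sox4 in 0% to 0.64% of cells on average, and Sox4 in 14.6% ± 4.2.

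The factors were often found in the same cell. Single shares as high as those above can give this without any link between the factors, and a link was not tested. Leaving out Sox4, at least 3 of the other 6 were found in 73.3%, 84.5%, 76.2% and 79.3% of thinned EEC-Progenitor cells. The range over mice was 83.7% to 91.7% in ECL, 61.2% to 84.0% in Epsilon, 35.0% to 44.1% in Ppy+ and 25.9% to 50.0% in Delta cells. It was 0% in MucinDuctalProgenitor cells of all 3 mice, of which 86.8%, 100% and 89.5% held none of the 6.

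The 2 label sets divided the EEC-Progenitor cells. The type labels called 333 of the 391 cells EEC, 57 Tuft/EEC.Progenitor and 1 Tuft, whereas 148 of 156 MucinDuctalProgenitor cells were typed Tuft/EEC.Progenitor and 8 Tuft. Cells typed Tuft/EEC.Progenitor within the EEC-Progenitor subtype held Neurog3 at 514, 939 and 558 CPM (2-week mouse 2 and both mice at 4 weeks), between the 28.7, 10.5 and 54.8 CPM of Tuft/EEC.Progenitor cells outside it and the 2871, 2734, 2698 and 2676 CPM of those typed EEC. Median depth was 15119 UMIs in the 57 cells and 12625 in the 333.

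The other factors split those cells differently. Insm1 was intermediate in the 57 cells, at 254, 227 and 181 CPM, against 903, 1172, 899 and 1116 CPM in those typed EEC. Neurod1 was 15.6, 0 and 0 CPM in the 57 cells, from a single cell, and 675, 859, 801 and 855 CPM in those typed EEC. Nkx2-2 was 116, 29.9 and 0 CPM against 289, 501, 266 and 391 CPM, and Fev and Rfx6 each came from a single cell among the 57. Sox4 was high in both, at 4780, 4277 and 4692 CPM in the 57 cells and 3829, 3657, 3178 and 3231 CPM in those typed EEC, without overlap.

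**Figure D2:**
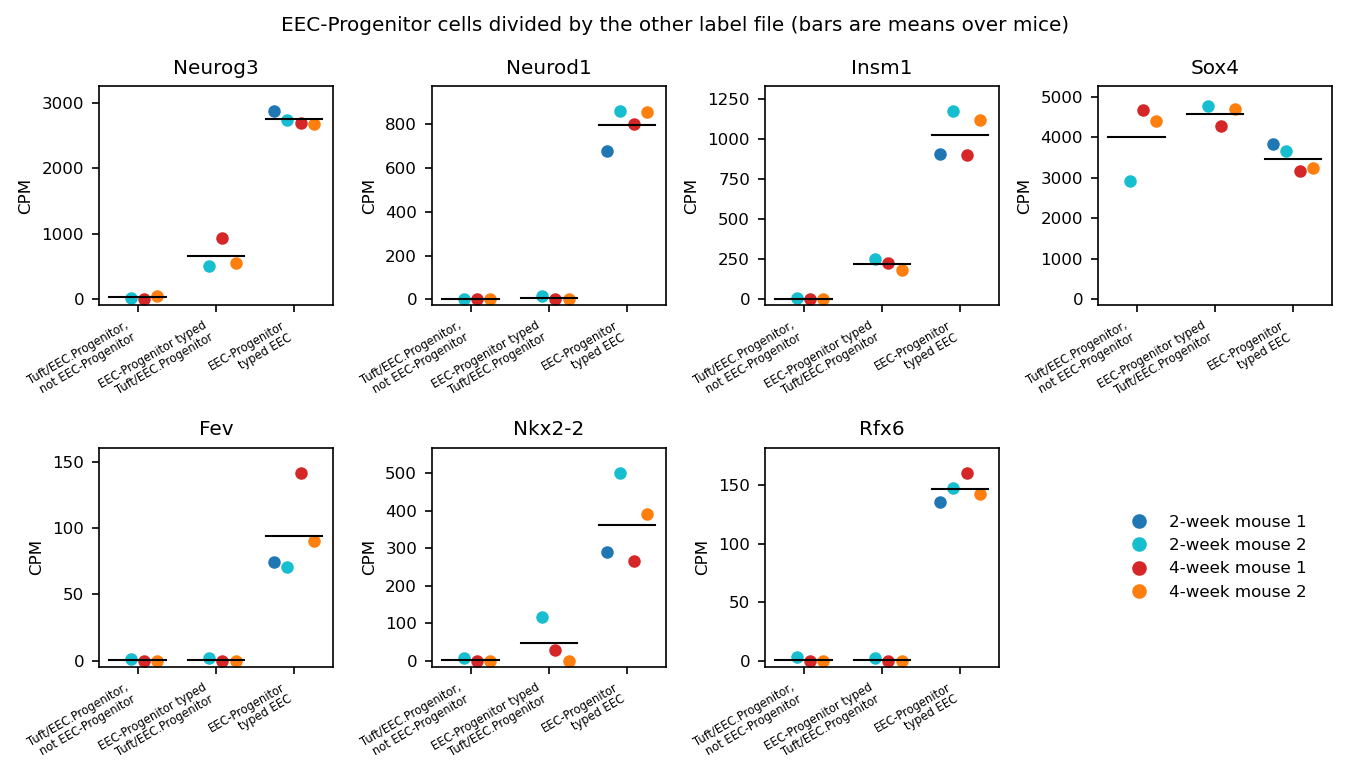
Level of each factor in CPM (y axis, linear) in Tuft/EEC.Progenitor cells outside the EEC-Progenitor subtype, EEC-Progenitor cells typed Tuft/EEC.Progenitor and EEC-Progenitor cells typed EEC (x axis); points are mice with at least 10 cells and black bars are means. Neurog3 and Insm1 are intermediate in the middle group, while Neurod1, Fev and Rfx6 are near 0 there.

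Within the 57 cells, detection of Nkx2-2 and Insm1 followed that of Neurog3. Of 24 cells with a Neurog3 UMI, 19 (79.2%) also had Insm1 and 11 (45.8%, exact 95% interval 25.6% to 67.2%) had Nkx2-2, but 1 (4.17%) had Neurod1. Of 33 cells without Neurog3, 9 had Insm1, and 0 had Nkx2-2, Neurod1, Fev or Rfx6. Taken as 3 counts of 33, this allows a share of up to 9.09% for each, and the exact 95% interval reaches 10.6%. Median depths of the 2 classes were 15104.5 and 15465 UMIs. The 24 cells came as 1, 14, 4 and 5 from the 4 mice, and 10 of the 11 cells with Nkx2-2 came from 2-week mouse 2. The pooled Nkx2-2 share and its interval thus rest mostly on that mouse.

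In the cells typed EEC the other factors were also found without a Neurog3 UMI. Of 24 such cells with no Neurog3 UMI, 23 had Insm1, 18 (75.0%) Nkx2-2, 17 (70.8%) Neurod1, 15 (62.5%) Rfx6 and 4 Fev. Of 309 with Neurog3, 307 had Insm1, 283 (91.6%) Nkx2-2, 259 (83.8%) Neurod1, 239 (77.3%) Rfx6 and 59 (19.1%) Fev. The cells without Neurog3 were shallower, at a median of 11007 against 12683 UMIs. Intervals and limits cover counting error only.

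When thinned EEC-Progenitor cells were classed by their Neurog3 UMIs (0, 1 to 9, 10 or more), Insm1, Neurod1, Rfx6 and Fev were lowest in the class without Neurog3 in each mouse. Mean Neurod1 UMIs per cell were 1.89, 1.79, 1.68 and 1.76 at 0, 5.25, 3.74, 3.89 and 4.52 at 1 to 9, and 2.83, 4.15, 3.65 and 4.08 at 10 or more. Mean Insm1 UMIs were 2.56, 2.21, 2.53 and 1.94 at 0, 5.25, 4.91, 4.39 and 5.15 at 1 to 9, and 4.88, 6.17, 4.77 and 5.54 at 10 or more. Neither gene had a common direction over the 4 mice between the upper 2 classes. Mean Rfx6 UMIs were 0.11, 0.58, 0.26 and 0.24 at 0, against 0.53 to 0.83 in the upper 2 classes. Sox4 was higher at 10 or more than at 0 in each mouse (24.3, 19.3, 17.3 and 19.9 against 8.44, 17.2, 15.7 and 14.2). At 1 to 9 Sox4 was 16.6, 20.6, 12.6 and 14.1, below the class at 0 in the mice at 4 weeks, though barely in 4-week mouse 2. In 2-week mouse 2 it was above the class at 10 or more. It thus rose steadily in 2-week mouse 1 alone. Sox9, a ductal and progenitor factor known to act upstream of Neurog3, was highest in the class without it, at 421, 233, 198 and 289 CPM, against 55.9, 92.3, 64.1 and 82.5 CPM at 1 to 9. That class held 9, 24, 19 and 17 cells. The classes also differed in type label: before thinning, 33 EEC-Progenitor cells without a Neurog3 UMI were typed Tuft/EEC.Progenitor and 24 EEC, against 24 and 309 of those with one. Among cells typed EEC alone, detection with and without Neurog3 was closer, as given above, and the part of the type labels in the class means was not tested.

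**Figure D3:**
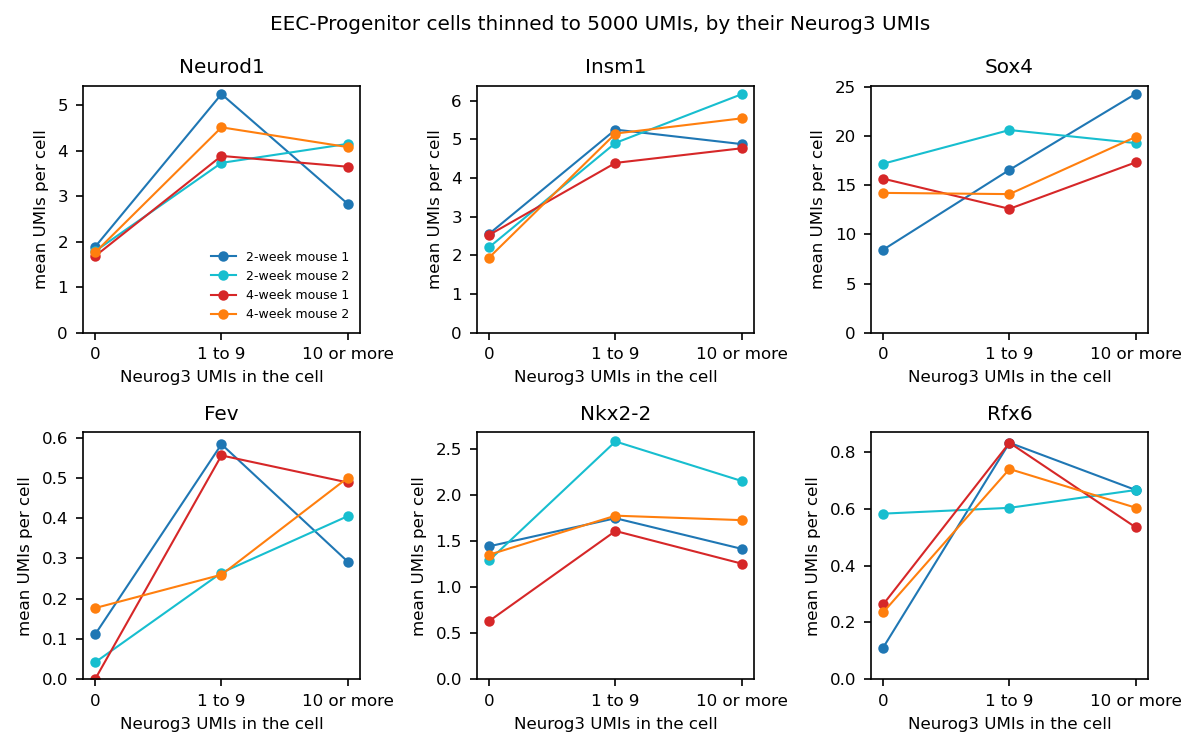
Mean UMIs per cell of the other 6 factors (y axes, linear from 0) in EEC-Progenitor cells thinned to 5000 UMIs, by the number of Neurog3 UMIs in the cell (x axis); each line is a mouse. Neurod1, Insm1, Rfx6 and Fev are lowest in cells without Neurog3 in all 4 mice; the classes differ in their mix of type labels.

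Of 15 Notch pathway genes listed, 5 reached a mean of 20 CPM, and between MucinDuctalProgenitor and EEC-Progenitor cells 3 were higher and 0 lower without overlap (median log2 ratio 1.81, against 0.25 over all 6468 genes, of which 30.5% were higher and 12% lower). The Notch ligand Dll3 was 6.38 ± 6.26 CPM in the former and 174 ± 33.5 CPM in the latter, Hes6, which is known to oppose Hes1, 255 ± 46.6 and 898 ± 71.3 CPM, and the fringe enzyme Mfng 2.25 ± 1.95 and 104 ± 11.5 CPM. The pathway's DNA-binding factor Rbpj and the fringe enzyme Lfng overlapped. All 5 genes were lower without overlap in Epsilon, Delta, Ppy+ and ECL cells than in EEC-Progenitor cells, with Dll3 at 24.3 ± 5.00, 8.95 ± 3.09, 2.07 ± 1.87 and 11.4 ± 14.1 CPM. Of all genes, 17.4%, 18.9%, 34.6% and 16.8% were lower in these 4 contrasts. The limit of 20 CPM applies to the mean over all subtypes, so a high EEC-Progenitor level, as for Dll3, helps a gene pass it. A lower level in other subtypes is then favoured, and listed genes under the limit were not counted.

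Among 16 factors listed as upstream of or beside Neurog3, 7 reached 20 CPM, with 2 higher and 1 lower in EEC-Progenitor than in MucinDuctalProgenitor cells (median log2 ratio -0.27). These counts are near the shares over all genes, 30.5% higher and 12% lower, so the list as a whole did not stand apart. Sox9 was lower, at 111 ± 23.1 against 649 ± 128 CPM. Foxa2, a forkhead factor of endoderm, was higher, at 233 ± 12.8 against 109 ± 46.9 CPM, as was Pdx1, a pancreatic and duodenal factor, at 36.5 ± 6.31 against 17.2 ± 5.85 CPM. Pdx1 was higher again without overlap in all 4 hormone-named subtypes, at 66.7 ± 22.8 (Epsilon), 204 ± 25.1 (Delta), 102 ± 11.5 (Ppy+) and 132 ± 29.5 CPM (ECL).

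Of 17 endocrine subtype factors, 12 reached 20 CPM, and 10 were higher and 0 lower in EEC-Progenitor than in MucinDuctalProgenitor cells (median log2 ratio 4.34), where 30.5% of all genes were higher and 12% lower. They included Myt1, a zinc finger factor known to act with Neurog3, at 122 ± 6.72 against 0.21 ± 0.36 CPM, and Rcor2, a corepressor subunit, at 149 ± 19.7 against 7.05 ± 2.53 CPM. Rcor2 then was lower in all 4 hormone-named subtypes, at 37.8 ± 21.6, 14.7 ± 3.63, 9.87 ± 3.03 and 20.5 ± 8.66 CPM. As for Dll3, the EEC-Progenitor levels of Myt1 and Rcor2 help them pass the limit of 20 CPM. This favours the rise of both and the fall of Rcor2. Of the 12, 6 were higher and 2 lower in Epsilon, 4 and 2 in Delta, 7 and 3 in Ppy+ and 4 and 3 in ECL cells, where 11.3% and 17.4%, 16.9% and 18.9%, 9.91% and 34.6%, and 21.3% and 16.8% of all genes were. Pax6, Peg3 and Hhex were higher in all 4 than in EEC-Progenitor cells, and Isl1, a LIM homeodomain factor, was higher in Epsilon, Delta and Ppy+ cells but lower in ECL cells (37.7 ± 30.5 against 112 ± 33.8 CPM).

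Of 10 tuft factors, 7 reached 20 CPM, and 0 were higher and 4 lower in EEC-Progenitor than in MucinDuctalProgenitor cells, where 12% of all genes were lower. Pou2f3, the master factor of tuft cells, was 2.81 ± 2.28 against 87.5 ± 3.96 CPM, and Ascl2, a helix-loop-helix factor of intestinal stem cells, 4.91 ± 4.65 against 149.6 ± 25.6 CPM. Of 23 granule and hormone genes, 21 reached 20 CPM and 8 were higher and 0 lower, not far from the 30.5% of all genes that were higher. Among the 8 was Chga, a granule protein, at 427 ± 267 against 4.63 ± 1.14 CPM. The count for acinar enzymes, 7 of 25 higher and 1 lower, was also near those shares. The acinar enzymes summed to a level in EEC-Progenitor cells of 47253, 21471, 12870 and 28457 CPM. The part of acinar RNA in these results was not tested.

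The genes most alike to each factor over 34 sums of a subtype in a mouse were named by Pearson's r of log2 levels among 6468 genes. These sums share libraries and label definitions, so r is a description. Cald1 and Btbd17 were among the genes closest to Neurog3 (each r = 0.892). Celf3 came first for Neurod1 (0.984), Insm1 (0.983), Nkx2-2 (0.957) and Rfx6 (0.982), and Pnmal1 came first for Fev (0.976). Sox4 was closest to Stmn1 (0.942), Acadsb (0.928) and Ptma (0.927), and its r with the other factors ran from -0.076 for Rfx6 to 0.534 for Neurog3.

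Tuft cells held few of these factors other than Sox4. Neurog3 was found in 5 of 210 Tuft-1, 3 of 457 Tuft-2 and 7 of 494 Tuft-3 cells, at 0 to 14.8 CPM by mouse. Neurod1, Insm1, Fev and Rfx6 were at 0 to 21.8, 0 to 18.5, 0 to 5.82 and 0 to 5.44 CPM in mice with at least 10 cells of a tuft subtype. At least 3 of the 6 factors were found together in 2 Tuft-1, 5 Tuft-2 and 2 Tuft-3 cells, and 2, 5 and 1 of these also held Chga or Chgb, both granule genes. Of the remaining tuft cells, 19 of 208, 32 of 452 and 43 of 492 did. Their median depth was 20480.5, 34015 and 33588.5 UMIs, against 17626.5, 19887 and 17094.5 in the remaining tuft cells of each subtype. Whether such cells are doublets was not tested.

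Nkx2-2 was found in more tuft cells than the other 5, and nearly all came from 2-week mouse 2. That mouse gave 17 of 17 positive Tuft-1 cells, 36 of 40 Tuft-2 cells and 37 of 41 Tuft-3 cells, while it held 166 of all 210 Tuft-1, 269 of 457 Tuft-2 and 181 of 494 Tuft-3 cells. For Tuft-1 its share of positive cells thus exceeded its share of all cells by less than in Tuft-2 and Tuft-3. In the 3 other mice together 0 Tuft-1, 4 Tuft-2 and 4 Tuft-3 cells had a UMI. The same mouse stood apart in cells that are not endocrine. Acinar cells had an Nkx2-2 UMI in 2.81%, 20.8%, 1.57% and 1.46% of cells, and in 0.29%, 5.06%, 0.28% and 0.60% after thinning. MucinDuctal cells had it in 3.23%, 8.93%, 1.14% and 1.11%, and in 0.27%, 2.33%, 0.33% and 0.48% after thinning.

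Immune cells without a type had Nkx2-2 in 0%, 1.17%, 0% and 0.294%, and after thinning in 0 of 856 cells, 212 of them from 2-week mouse 2. As these cells were chosen to hold no Chga, Chgb or Epcam UMI, they do not measure stray RNA from endocrine cells. In acinar cells of that mouse the other factors were higher as well: Neurog3 stood at 1.28, 10.8, 1.53 and 0.589 CPM, Neurod1 at 1.34, 5.88, 0.536 and 0.589 CPM, and Sox4 at 65.2, 217, 37.4 and 53.5 CPM. The source of these UMIs was not tested.

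**Figure D4:**
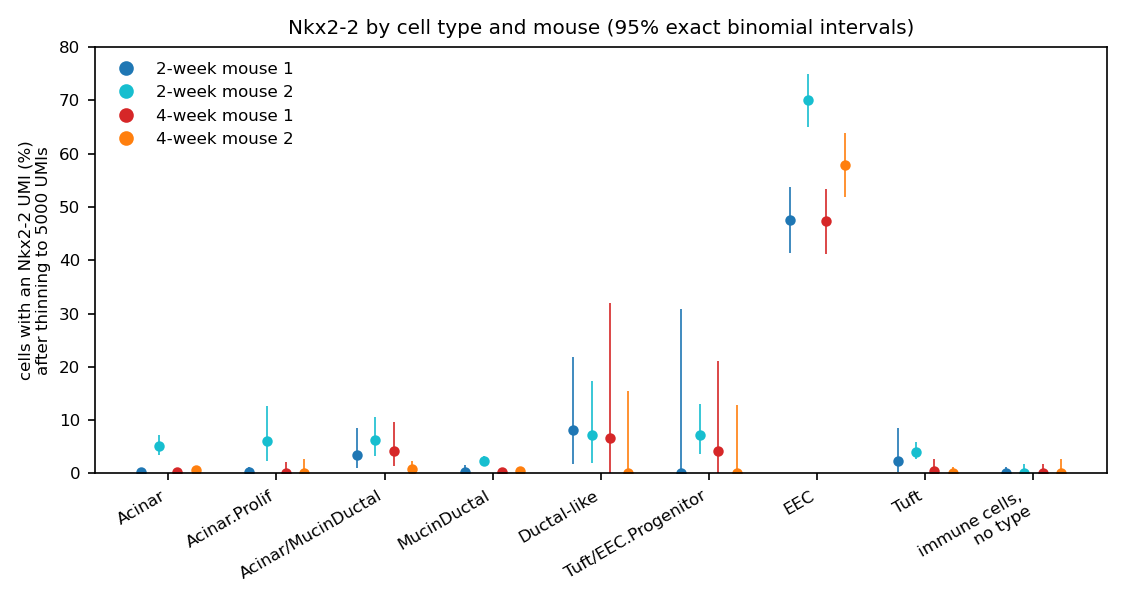
Share of cells with an Nkx2-2 UMI after thinning to 5000 UMIs (y axis, percent) in the 8 types and in immune cells without a type (x axis); points are mice and bars are exact 95% binomial intervals, which cover counting error only. In Acinar cells 2-week mouse 2 stands at 5.06% and the other mice at 0.28% to 0.60%, while EEC cells stand at 47.3% to 70.1%.

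Among the other types, Ductal-like cells held Neurog3 at 40.3, 32.9, 2.18 and 73.3 CPM from 2, 9, 1 and 1 cells. Sox4 in Ductal-like cells was 418, 714, 467 and 737 CPM, above MucinDuctal cells of the same mouse (211, 435, 223 and 206 CPM) in each case. Tuft/EEC.Progenitor cells held Neurog3 at 353, 89.7, 445 and 284 CPM, which the 57 cells of the EEC-Progenitor subtype supplied for the most part. EEC cells outside the EEC-Progenitor subtype held it at 104, 160, 53.4 and 108 CPM.

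The time comparison asked whether the factors differed between 4 and 2 weeks of caerulein within a type. UMIs were summed per mouse, and edgeR's quasi-likelihood test with Benjamini-Hochberg adjustment over all genes was run in the 15 types and subtypes with at least 10 cells in each mouse, with 2 mice at each time. In EEC-Progenitor cells 0 of 7 factors passed an adjusted p of 0.05, where 0.0453% of 8833 genes did. Neurog3, at 2630 and 2322 against 2406 and 2287 CPM, had a log2 fold change of -0.12 ± 0.14 (SE, edgeR adjusted p = 0.983), and the times overlapped. Fev, at 66.1 and 57.8 against 118 and 74.2 CPM, did not overlap and had the largest estimate of the 7, 0.60 ± 0.22 (edgeR adjusted p = 0.795). The 5 others lay between -0.37 ± 0.35 (Nkx2-2) and 0.03 ± 0.15 (Neurod1).

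Leaving out 2-week mouse 1 put Nkx2-2 in EEC-Progenitor cells at a log2 fold change of -0.68, and leaving out 2-week mouse 2 turned its sign (0.07). Of the factors tested, 0 passed in the hormone-named subtypes, where 0% (Epsilon), 0.0154% (Delta), 0.159% (Ppy+) and 0.0816% (ECL) of genes did. The largest estimate there, Neurog3 in Delta cells (-5.15 ± 1.68, edgeR adjusted p = 0.822), rested on 6 cells with a UMI. With DESeq2 it passed (adjusted p = 1.09e-04), where 0.013% of 15439 genes did. Its estimate was -3.91 without 2-week mouse 1 and -5.84 without 2-week mouse 2. Without 2-week mouse 1, the estimates of Neurog3 were -2.63 in Ppy+ and -4.01 in ECL cells, and that of Sox4 was -1.15 in Ppy+ cells. Without 2-week mouse 2, that of Insm1 was 0.64 in Epsilon cells. Each such fit leaves a lone mouse at a time, so only its estimate is given. Neurod1 in ECL cells was 698 and 860.1 against 506 and 607 CPM, without overlap, with a log2 fold change of -0.50 ± 0.18 (edgeR adjusted p = 0.903).

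In Tuft-2 and Tuft-3 cells, where 0% and 0.114% of genes passed, 0 of the factors tested did. Sox4 in Tuft-3 cells, at 321 and 297 against 237 and 176 CPM, did not overlap and had a log2 fold change of -0.60 ± 0.17 (edgeR adjusted p = 0.373). In the 8 types the count was also 0, where 0% (Acinar, Acinar/MucinDuctal, MucinDuctal, Ductal-like, EEC, Tuft), 0.00995% (Acinar.Prolif) and 0.0375% (Tuft/EEC.Progenitor) of genes passed. Without 2-week mouse 1, which leaves 2-week mouse 2 alone at its time, Nkx2-2 was at -4.08 in Acinar, -2.19 in MucinDuctal and -0.56 in EEC cells. Sox4 was then at -1.60 in Acinar, -1.22 in Acinar.Prolif and -1.02 in Tuft cells, and Neurod1 at -2.71 in Acinar and -7.74 in Ductal-like cells. In Tuft/EEC.Progenitor cells Neurog3 was at 1.91 and Insm1 at 1.21. Only estimates are given for these fits. Without the filter on low counts, 6 factors passed in Acinar cells, where 1.48% of 19275 genes did, namely Neurog3 (-1.88), Neurod1 (-2.07), Insm1 (-1.65), Sox4 (-1.08), Nkx2-2 (-3.21, edgeR adjusted p = 1.29e-13) and Rfx6 (-2.43). Nkx2-2 in Acinar/MucinDuctal (-1.37), Neurod1 in Ductal-like (-7.67) and Sox4 in Tuft cells (-0.70) passed that way too. Of all genes, 0.687%, 0.488% and 1.44% passed in those 3 types without the filter. Over all 89 fits of a factor, the EEC and Tuft difference included, edgeR called 0. DESeq2 called 1 of 82, where 0.0874% of all genes passed. An unadjusted edgeR p under 0.05 was found in 12 of the 89, a larger share than the 4.73% of all genes over those fits. Of the 12, 3 were in Acinar cells, where 2-week mouse 2 stood above the other mice. The share is thus no test of a time effect on the factors. The fits are not independent, because cells of the subtypes are also in the fits of the types.

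Whether the time effect differed between EEC and Tuft cells was tested with mouse as a block, and 0 of 7 factors passed, where 0.0318% of 12583 genes did. The largest difference was that of Fev, 4.08 ± 0.75 on the log2 scale (edgeR adjusted p = 0.128). It passed without the filter (4.08), where 0.532% of 20485 genes did. Its estimate was 4.08 without 2-week mouse 1 and 6.76 without 4-week mouse 1, each leaving a lone mouse at a time. Without 4-week mouse 1, the estimates of Neurog3 (3.60), Neurod1 (3.99), Insm1 (3.44) and Nkx2-2 (8.36) were also large, and the signs of Neurog3 and Insm1 had turned. The Fev difference rested on Tuft levels of 2.34, 2.24, 0.301 and 0 CPM, against 106, 139, 129.9 and 127 CPM in EEC cells. Sox4 had a difference of 0.45 ± 0.14 (edgeR adjusted p = 0.610).

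In EEC-Progenitor cells 0 genes of the other lists passed the time comparison, of 8 Notch pathway genes, 12 upstream factors, 14 subtype factors, 11 granule and hormone genes and 26 acinar enzymes tested. The median log2 fold change was -0.12 over the 7 factors, -0.04 over the Notch genes and -0.01 over all 8833 genes. The 4 genes that passed in EEC-Progenitor cells were Glud1, a mitochondrial glutamate dehydrogenase, which rose (1.01 ± 0.15, edgeR adjusted p = 0.0315), and Cym (-4.50 ± 0.31, edgeR adjusted p = 0.000538), Reg3b (-1.99 ± 0.20, edgeR adjusted p = 0.000538) and Gm26917 (-1.40 ± 0.16, edgeR adjusted p = 0.00164), which fell. Cym is a gastric-type protease gene and Reg3b an antimicrobial lectin gene of injured pancreas.

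**Figure D5:**
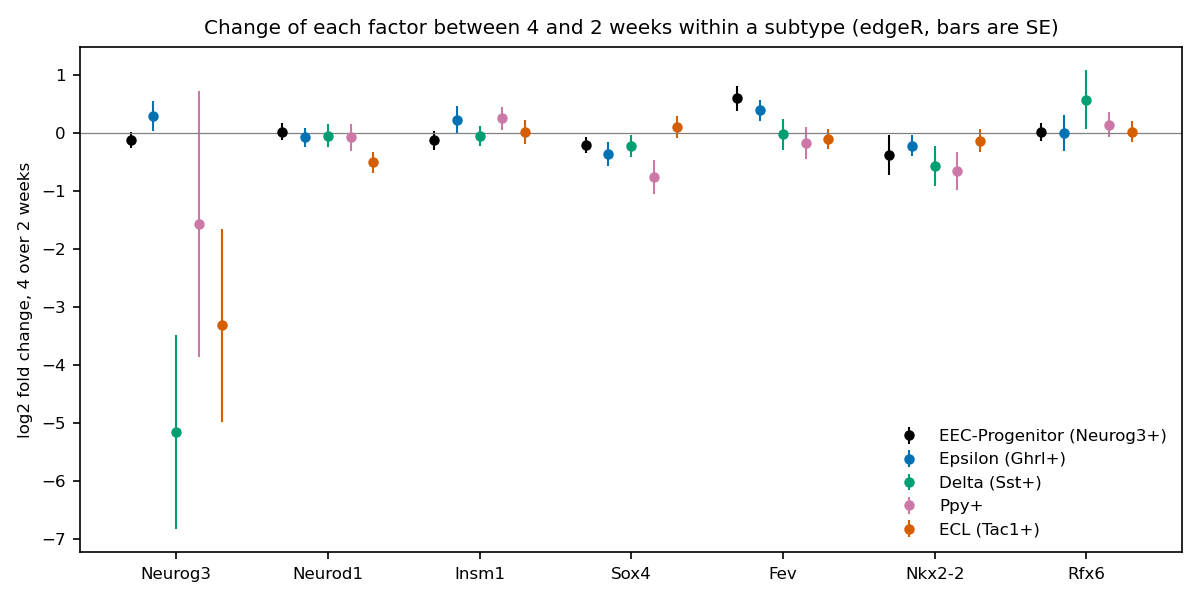
Log2 fold change of each factor between 4 and 2 weeks of caerulein (y axis, linear) in the EEC-Progenitor and the 4 hormone-named subtypes (colours). Bars are 1 SE, derived from the F statistic of edgeR, with 2 mice per time. In EEC-Progenitor cells the 7 estimates lie between -0.37 and 0.60, and the estimates farthest from 0 are those of Neurog3 in Delta, Ppy+ and ECL cells.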

How the data were processed

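Single-cell RNA libraries (10x 3' chemistry) of EYFP+ pancreas cells from 4 mice were analysed. Per the submitters' processing notes, the authors used Cell Ranger 4.0.0 and Seurat 3.2.3 with mm10, and they deposited raw UMI counts per gene and cell. Cell filters, naming of types and strand setting are not given in the sources used here; the lowest cell total was 1000 UMIs. Types and subtypes are the authors' deposited labels. The labels give each sample an identifier of its own, read here as a separate mouse; p-values measure the spread between these samples.

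UMIs were summed per mouse and type and expressed as CPM; log2 ratios used a pseudocount of 1 CPM. Shares were compared after thinning cells to 5000 UMIs. The time comparison used edgeR 4.0.16 (TMM, filterByExpr, glmQLFit and glmQLFTest, Benjamini-Hochberg over all genes of a fit), with R 4.3.3. The fit was tested on simulated data. Each SE of an edgeR fold change was derived as its absolute log2 value divided by the square root of the test's F statistic. DESeq2 1.42.0, no filter, scaling by total UMIs and leaving out each mouse were alternatives. No doublet caller was run; an alternative left out the 5% of cells with the most UMIs. Sequences are from RefSeq (GRCm38.p6), of which 6 of 7 genes matched. Named genes are the 7 factors, genes of the lists (Notch pathway, upstream factors, endocrine subtype factors, tuft factors, granule and hormone genes, acinar enzymes), the 3 genes most alike to each factor (1 of them is not reported here), and up to 3 genes per direction called over time. The members and lists were chosen with earlier results of these data known.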

Additional observations from a re-analysis of the deposited data

Results flagged for a closer look

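Cells without a type label that held at least 5 of 7 endocrine marker genes were looked at because no comparison above uses them, a choice made after seeing the data. The type labels cover the 13362 cells of the set that the authors named Filtered-YFP+. Cells without a type lie outside that set, so they cannot be taken as EYFP+ cells. The 126 cells (20, 36, 36 and 34 by mouse) held all 7 factors above the level of immune cells without a type. The former were picked by endocrine markers and the latter by having no Chga, Chgb or Epcam UMI. Both choices favour this difference, so it is a description only. Neurod1 stood at 202 ± 31.9 CPM (SD, n = 4) against 0.673 CPM in immune cells, Insm1 at 177 ± 60.4 against 0.986, and Rfx6 at 85.8 ± 24.5 against 0.899. Fev stood at 71.1 ± 22.7 against 0.398 CPM, Nkx2-2 at 59.9 ± 19.4 against 0.583, and Sox4 at 358 ± 100.8 against 37.3. Neurog3 was 32.1 ± 45.5 against 0.265 CPM, and a single cell held 94.0% of its UMIs in the mouse with the highest level, 4-week mouse 1. In the same cells the Mucin/ductal markers summed to 40560 to 86705 CPM, against 3361 to 5113 CPM in EEC-Progenitor cells, and tuft markers were 12.0 to 42.2 CPM. Median depth was 13633.5, 23315.5, 8934.5 and 6069 UMIs by mouse. The part of these in the levels was not tested.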

How the results depend on the processing

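No paired analysis was possible because the mice at 2 and 4 weeks are different animals and the labels give them no shared replicate number. Dropping a mouse cannot move a mean by as much as the SD over its mice, so a limit of 1 SD could not fail there. The ratios between subtypes moved by less than 1 SD with 10 CPM as pseudocount and with acinar enzymes out of the totals. Of these, 3 ratios near 0 turned sign without a mouse: without 4-week mouse 1, Sox4 in EEC-Progenitor over MucinDuctalProgenitor cells (0.017), Rfx6 in Ppy+ (0.0019) and Neurod1 in ECL over EEC-Progenitor cells (0.10), the last also without 4-week mouse 2 (0.037). Insm1 in Delta cells moved to -1.23 both as a mean over cells and without the 5% of cells with the most UMIs. With only EEC-Progenitor cells typed EEC, an alternative added after seeing the data, 6 of 28 ratios moved: Insm1 to -1.35 (Delta) and -0.54 (ECL), Neurod1 to -0.46 and Nkx2-2 to -0.33 (Epsilon), and Rfx6 to -0.29 (Ppy+) and 0.99 (ECL). Of 63 shares of cells, 45 moved without thinning and 40 with 1500 UMIs.

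Genes called over time varied with the settings. DESeq2 called 17 in Acinar, 2 in Acinar.Prolif, 20 in Acinar/MucinDuctal, 45 in MucinDuctal, 1 in Ductal-like, 5 in Tuft/EEC.Progenitor, 14 in EEC, 30 in Tuft, 10 in EEC-Progenitor, 1 in Epsilon, 2 in Delta and 1 in Tuft-2 cells. Without a filter edgeR called 286, 51, 128, 6, 81, 53, 74, 266, 50, 22, 24 and 62 in those, 60 in Ppy+, 54 in ECL and 187 in Tuft-3 cells, and 109 for the EEC and Tuft difference. Scaling by total UMIs called 9 in Acinar, 2 in Acinar.Prolif, 2 in Acinar/MucinDuctal, 7 in EEC and 10 in Epsilon cells, and put the median of all genes at -0.49 (Acinar), -0.21 (Epsilon), -0.18 (Acinar.Prolif and Ppy+) and -0.13 (MucinDuctal). Leaving out a mouse gave 13 to 129 (Acinar), 5 to 143 (Acinar.Prolif), 0 to 122 (Acinar/MucinDuctal), 0 to 191 (MucinDuctal), 0 to 230 (Ductal-like), 5 to 266 (Tuft/EEC.Progenitor), 0 to 366 (EEC), 5 to 273 (Tuft), 12 to 195 (EEC-Progenitor), 0 to 204 (Epsilon), 29 to 50 (Delta), 39 to 141 (Ppy+), 6 to 155 (ECL), 1 to 124 (Tuft-2) and 3 to 303 (Tuft-3), and 14 to 107 for the difference; the lone mouse of a time is then assumed to vary like the others.

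The factors were called in 10 of 89 fits without a filter and in 0 of 82 by total UMIs. Over all genes tested in those settings, 0.542% and 0.0475% passed. The 89 are fits in which a factor had passed the filter. Factors that it removed were not counted without it, whereas the 0.542% includes all genes it removed. Leaving out a mouse also changed which factors passed, and the estimates concerned are given beside the results. The calls gained without a filter are given there too. Each fit without a mouse leaves a lone mouse at its time, so its calls are not printed for the factors. In EEC-Progenitor cells the sign turned when a mouse was left out for Neurod1 (-0.072 without 2-week mouse 1, -0.032 without 4-week mouse 2, range -0.072 to 0.158), Insm1 (0.022 without 2-week mouse 2, 0.0351 without 4-week mouse 1, range -0.29 to 0.0351), Nkx2-2 (0.0682 without 2-week mouse 2, range -0.676 to 0.0682) and Rfx6 (-0.0475 without 4-week mouse 1, range -0.0475 to 0.0885). The cause was not tested. Few positive cells limit Neurog3 in Delta and Ppy+ cells, and in ECL cells outside 2-week mouse 2.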
